A study of Mus musculus with 50 samples.

Results

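Maternal pluripotency factors are genes known from embryonic stem cells and reprogramming whose mRNAs can also be stored in the oocyte. The group described here holds 9 genes: Pou5f1, Sox2, Sall4, Klf4, Esrrb, Nr5a2, Lin28a, Lin28b and Tcl1. They were named by symbol and not by a rule on measured values, but with earlier results of these data known. All 9 had a row among the 16614 genes of the deposited table, and all 9 passed the filter on low counts that left 15029 genes to test. The study sequenced 50 single mouse oocytes at the germinal vesicle stage, the fully grown oocyte held in meiotic prophase. It compared 26 floxed oocytes (F/F-Zfp36l2, with an allele of Zfp36l2 that can be deleted) with 24 conditional knockout oocytes (cKO-Zfp36l2). Females of both genotypes were 5 weeks old and had been primed 46 hours earlier with 10 IU of PMSG, a hormone under which follicles grow, and oocytes were taken in medium with 5 μM milrinone, an inhibitor of cyclic AMP breakdown that keeps them arrested. The Cre driver, and so the cells in which the allele is deleted, was not named by the labels used here, nor was the strain.

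The mouse was the replicate, with 4 floxed mice (5, 7, 7 and 7 oocytes) and 4 knockout mice (1, 7, 8 and 8 oocytes). Total counts were 1746007 to 6120317 per floxed oocyte and 4332108 to 6233840 per knockout oocyte, so all 3 oocytes under 3000000 counts were floxed. Zfp36l2 itself was at 1.96 to 4.17 counts per 1000000 total counts (CPM) in floxed and 1.06 to 2.77 CPM in knockout mice (edgeR adjusted p = 0.208), a count over the whole gene that does not check the labels, so genotypes are those of the labels throughout. All 24 oocyte markers checked, among them Zp3 and Gdf9, had a row, and their summed level overlapped, at 7990 to 9980 CPM in floxed and 8190 to 9840 CPM in knockout mice. Markers of the cumulus and granulosa cells that surround the oocyte, 24 with a row, summed to 163 to 267 CPM in floxed and 139 to 376 CPM in knockout mice. Of these, the granulosa factor Foxl2 was at 0.279 to 1.00 CPM in floxed and 0.321 to 0.870 CPM in knockout mice. Some others were higher, with counts in all 26 floxed and 24 knockout oocytes. Cyp19a1 was at 60.5 to 101 CPM in floxed and 61.9 to 87.7 CPM in knockout mice. Inha was at 13.9 to 26.9 CPM and 23.1 to 58.6 CPM. The part of surrounding cells in the counts was not tested.

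POU5F1 (OCT4) and SOX2 bind DNA side by side and hold embryonic stem cells in the pluripotent state. SALL4 is a zinc finger partner of POU5F1, KLF4 a zinc finger factor used in reprogramming, and ESRRB and NR5A2 are orphan nuclear receptors that can stand in for other factors there. LIN28A and LIN28B are RNA-binding proteins that block maturation of the let-7 microRNAs, and TCL1 binds the kinase AKT and raises its activity. Some of these mRNAs are carried from the oocyte into the early embryo, before the embryo's own genes are switched on. ZFP36L2, the product of the gene targeted here, binds AU-rich stretches in the 3′ untranslated region of mRNAs and promotes their decay.

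Sites of the AU-rich kind are shown because they are where ZFP36L2 is known to bind. The 3′ untranslated regions of the 9 genes (mm10, GENCODE transcripts, mRNA strand) were searched for the heptamer TATTTAT and for the shorter pentamer ATTTA, which every TATTTAT also holds. The heptamer was found in 3 of the 9 genes, a single time in each, and the pentamer in 8. Among 13771 tested genes with a 3′ untranslated region, 27.7% held the heptamer. The heptamers of Sox2 and Nr5a2 are in capitals in these stretches, printed 5′ to 3′ as DNA letters.
Sox2: cttttgtacagTATTTATcgagataaaca
Nr5a2: ttggaatagttTATTTATattgtatatca
The Sox2 stretch is at chr3:34651822-34651850 on the plus strand in exon 1, and the Nr5a2 stretch is at chr1:136843784-136843812 on the minus strand in exon 9. Both exons are the last of their transcripts.

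Klf4, Sall4 and Esrrb held no heptamer and a single pentamer each, in capitals here.
Klf4: atgtaatataaATTTAagcaaacttct
Sall4: tgagggctttaATTTAtctacctcaat
Esrrb: gacctctccctATTTAggacctggagg
These stretches are at chr4:55527259-55527285 (minus strand, exon 5), chr2:168748938-168748964 (minus strand, exon 4) and chr12:86519396-86519422 (plus strand, exon 7). Pou5f1, whose 3′ untranslated region has 221 bases, held neither, and of 1027 tested genes with one of like length (shorter over longer at least 0.8) 6.7% held the heptamer. For Klf4, with 982 bases, 23.4% of 1970 genes of like length held the heptamer. For the 3 genes that held it, this share was 26.5% (Sox2), 50.4% (Nr5a2) and 63.0% (Lin28b). For the 8 genes that held the pentamer, 73.1% (Tcl1) to 99.0% (Lin28b) of genes of like length held it too. A match describes letters only, and binding was not measured.

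Of the 9 genes, 1 fell in knockout oocytes, none rose, and 8 did not pass the test (edgeR quasi-likelihood test on counts summed per mouse, adjusted p under 0.05 over all 15029 genes). The background was 27.6% of tested genes called, 14.4% higher and 13.2% lower. Klf4 was the gene that fell, by 2.19-fold. At an unadjusted p under 0.05 edgeR also placed Esrrb higher. DESeq2, at an adjusted p under 0.05, called Klf4 alone, with Esrrb at 0.0682 (Wald test). The median log2 fold change was 0.10 over the 9 genes and -0.006 over all tested genes, and the median size of the change, regardless of sign, was 0.18 against 0.44. Values are shares of each mouse's total count, so fewer transcripts of every gene per oocyte would not show.

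**Figure D1:**
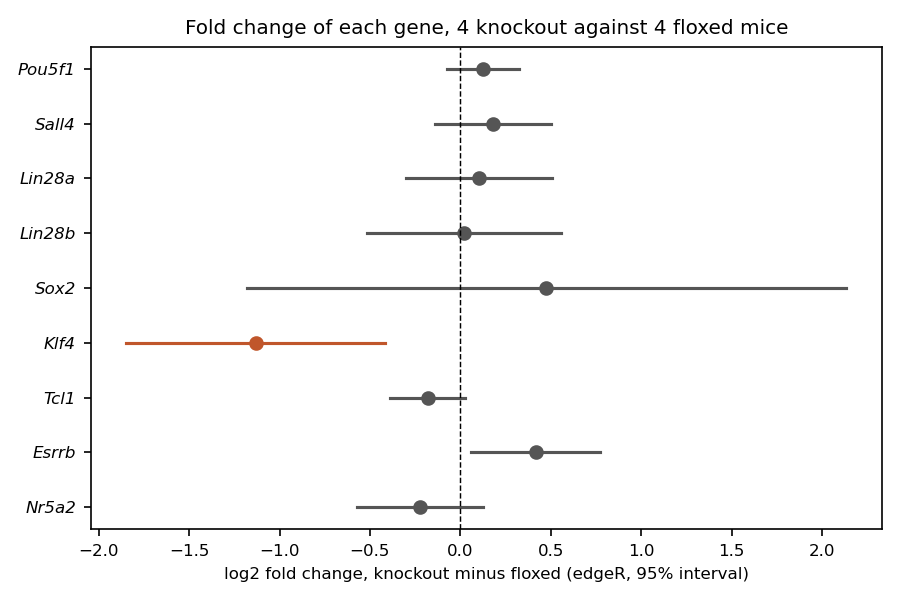
Log2 fold change of each of the 9 genes, knockout minus floxed (horizontal axis), from the edgeR fit on 4 mice of each genotype; points are estimates and lines are 95% intervals. Klf4, at -1.13, is the gene in colour with an adjusted p under 0.05, and Sox2 has the widest interval, from -1.18 to 2.13.

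Klf4 (chromosome 4, 55527143 to 55532466, minus strand) was lower in all 4 knockout mice than in any floxed mouse. Its level was 7.96, 9.80, 12.8 and 10.5 CPM in floxed mice 1 to 4, and 6.23, 6.22, 3.91 and 3.18 CPM in knockout mice 1 to 4. The groups did not overlap, which was so for 31% of all tested genes. The means were 10.3 ± 2.00 and 4.89 ± 1.58 CPM (SD, n = 4 mice each), a log2 fold change of -1.13 (SE 0.32, edgeR adjusted p = 0.0272). The single cells that make up these sums are described next, and they are no separate test. All 26 floxed oocytes lay above the knockout median of 3.23 CPM, and 23 of 24 knockout oocytes lay below the floxed median of 9.30 CPM. A single knockout oocyte of mouse 2 reached 18.5 CPM, close to the highest floxed oocyte at 18.9 CPM, and 15 knockout oocytes lay below all floxed ones. The counts behind these values were low, 6 to 104 per floxed and 0 to 100 per knockout oocyte. With single mice left out, the call was lost without floxed mouse 2, 3 or 4 or knockout mouse 3 or 4 (adjusted p from 0.0532 to 0.0761), with log2 fold changes from -1.34 to -1.01 over all 8 such fits. KLF4 is also known from endothelium, and some markers of theca, blood and endothelial cells (5 of 12 with a row) were lower as well. Of 4 tested, 2 fell (Pecam1 and Kdr) and none rose, and the 5 summed to 98.9 to 192 CPM in floxed and 24.6 to 43.2 CPM in knockout mice. Most of that was Pecam1, at 91.1 to 175 CPM in floxed and 18.7 to 35.7 CPM in knockout mice. The endothelial receptor Kdr was at 1.02 to 6.31 and 0 to 0.584 CPM and the theca enzyme Cyp17a1 at 0 to 0.248 and 0 to 1.01 CPM. Pecam1 had counts in all 26 floxed and all 24 knockout oocytes, and Kdr in 17 floxed and 3 knockout oocytes. Whether the Pecam1 counts came from such surrounding cells was not tested. The smooth muscle actin gene Acta2 was at 0.443 to 1.05 CPM in floxed and 1.12 to 1.34 CPM in knockout mice (adjusted p = 0.287), and the macrophage gene Cd68 at 5.16 to 11.6 and 1.85 to 6.09 CPM (adjusted p = 0.0564). The Kdr call was lost without floxed mouse 2, 3 or 4 or knockout mouse 3 or 4. The part of such cells in the Klf4 difference was not tested.

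**Figure D2:**
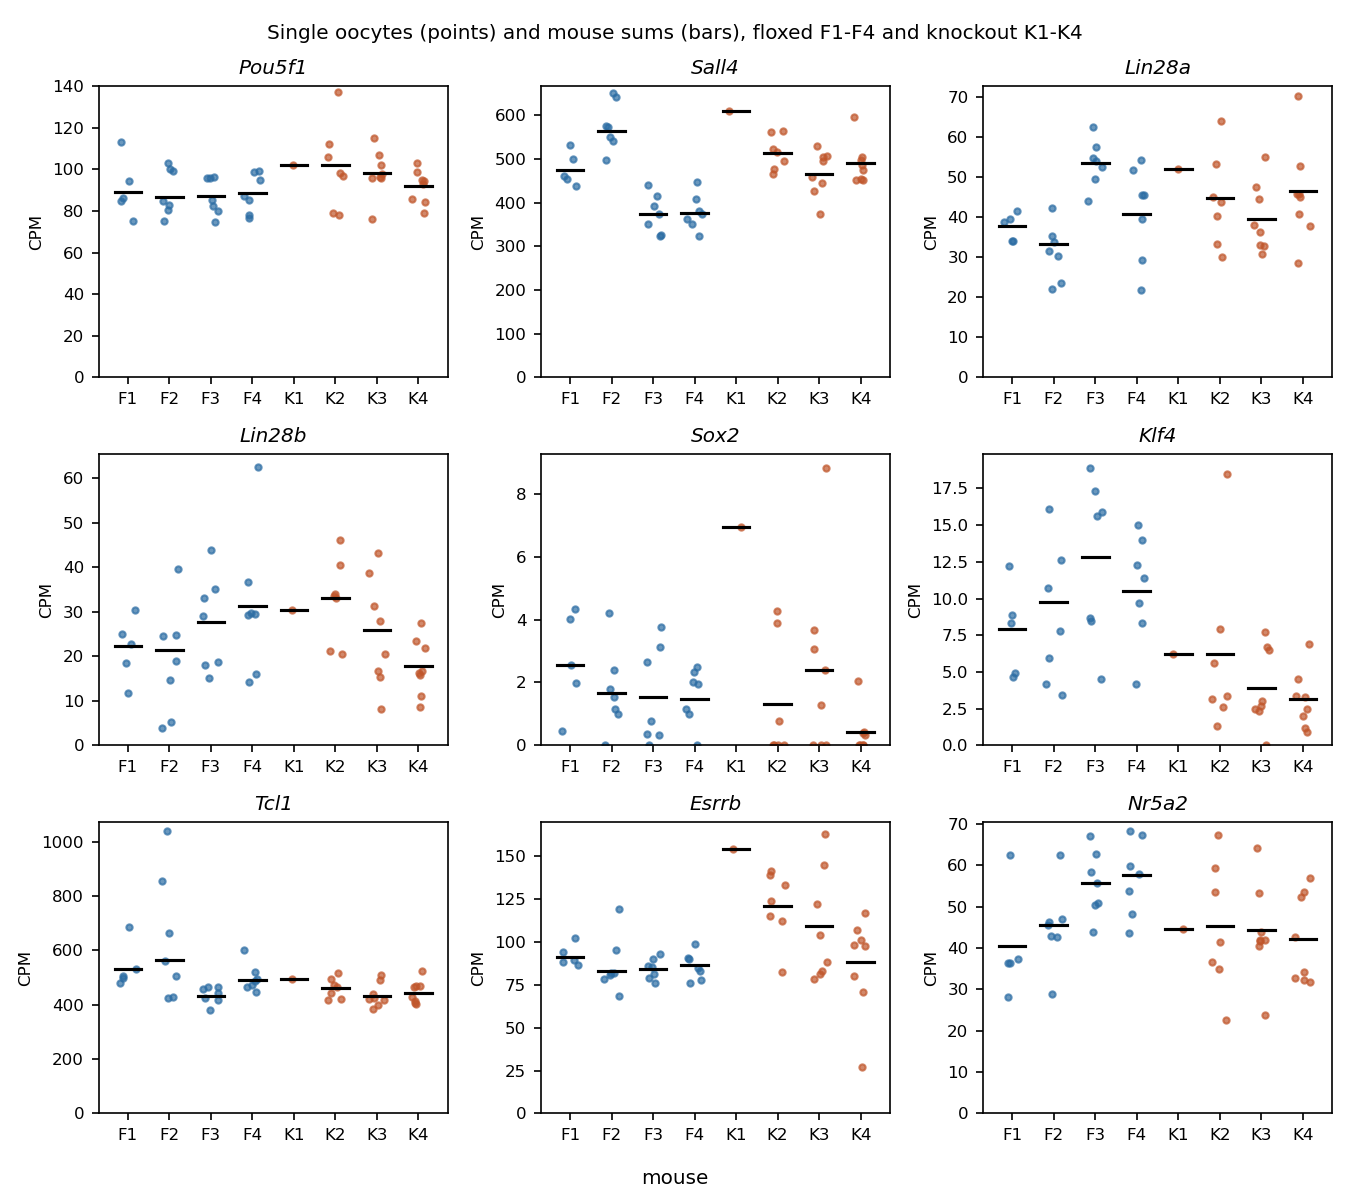
CPM of each gene (vertical axis, from 0) in single oocytes, as points by mouse (horizontal axis, F1 to F4 floxed, K1 to K4 knockout), with the value of the summed counts of each mouse as a black bar. For Klf4 the bars are at 7.96 to 12.8 CPM in floxed and 3.18 to 6.23 CPM in knockout mice, while for Lin28b, at 21.4 to 31.3 and 17.8 to 33.0 CPM, they overlap; knockout mouse 1 has 1 oocyte.

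Pou5f1 (chromosome 17, 35506018 to 35510772, plus strand) differed little between floxed mice, at 89.2, 86.6, 87.2 and 88.9 CPM. Knockout mice were at 102, 102, 98.1 and 92.2 CPM. Every knockout mouse was above every floxed mouse, as for Klf4 in the other direction, but the difference was small and did not pass the test. Groups were apart in this way, in either direction, for 2 of the 9 genes and for 31% of all tested genes. The means were 88.0 ± 1.29 and 98.6 ± 4.63 CPM, with a log2 fold change of 0.13 (SE 0.09, 95% interval -0.07 to 0.33, edgeR adjusted p = 0.326). The interval ends below a 1.5-fold rise. Oocytes of a mouse were alike too, with a coefficient of variation within mice that averaged 12.2% in floxed and 13.4% in knockout mice. The medians were 20.2% and 20.8% over the 9704 genes that averaged at least 10 CPM, which were not matched to Pou5f1 in level.

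Sox2 (chromosome 3, 34650405 to 34652461, plus strand, a single exon) was near the detection limit. Floxed mice had 2.55, 1.67, 1.54 and 1.49 CPM, and knockout mice 6.93, 1.31, 2.40 and 0.423 CPM. The highest and the lowest mouse were both knockout, and the highest, mouse 1, rests on 1 oocyte with 30 counts. The log2 fold change was 0.48 (95% interval -1.18 to 2.13, edgeR adjusted p = 0.675), and without knockout mouse 1 it was -0.47 (adjusted p = 0.560). No count was seen in 3 of 26 floxed and 11 of 24 knockout oocytes. In counts thinned to 3000000 per oocyte, without the 3 shallower floxed ones, 21 of 23 floxed and 12 of 24 knockout oocytes had a count. The share goes against the mean CPM, and the median thinned counts were 4.0 and 0.5, so no order is read from it. Sox2 lies inside the non-coding gene Sox2ot on the same strand, whose own row was at 0.408 to 2.51 CPM in floxed and 0.467 to 1.39 CPM in knockout mice, and reads of the shared stretch cannot be told apart. Pou5f1, Sall4 and Lin28a each overlap a gene on the other strand that has no row here, and these libraries do not record strand.

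Sall4 (chromosome 2, 168748332 to 168767943, minus strand) was the most abundant of the transcription factors in CPM. Floxed mice had 474, 564, 375 and 377 CPM and knockout mice 610, 514, 465 and 492 CPM. Floxed mice 3 and 4 were lowest and knockout mouse 1 highest, and the groups overlapped through floxed mice 1 and 2. The means were 447 ± 90.4 and 520 ± 63.0 CPM, with a log2 fold change of 0.18 (SE 0.14, 95% interval -0.14 to 0.50, edgeR adjusted p = 0.387). Within a mouse the oocytes differed less than the floxed mice did, with average coefficients of variation of 9.98% in floxed and 9.35% in knockout mice.

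The estimates of both orphan nuclear receptor genes lay on opposite sides of 0, and neither passed the test. Esrrb (chromosome 12, 86361117 to 86521628, plus strand) had 91.2, 82.8, 84.1 and 86.2 CPM in floxed mice and 154, 121, 109 and 88.2 CPM in knockout mice. Only knockout mouse 4 lay within the floxed range. The means were 86.1 ± 3.72 and 118 ± 27.3 CPM, with a log2 fold change of 0.42 (SE 0.16, 95% interval 0.06 to 0.77, edgeR adjusted p = 0.0802). Knockout mouse 1, with a single oocyte, was the highest of all 8, and without it the log2 fold change was 0.22 (adjusted p = 0.189), while without knockout mouse 4 it was 0.48 (adjusted p = 0.0340). In single cells, 25 of 26 floxed oocytes lay below the knockout median of 106 CPM, 8 knockout oocytes lay above all floxed ones, and 1, of mouse 4 at 26.9 CPM, lay below all of them.

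The spread of Esrrb between oocytes of the same mouse was also wider in the knockout mice. The SD of log2(CPM + 1) between oocytes was 0.0957, 0.249, 0.101 and 0.129 in floxed mice 1 to 4, and 0.265, 0.404 and 0.669 in knockout mice 2 to 4. Every knockout mouse lay above every floxed mouse, which was so for 9.04% of the 9704 genes at that minimum level, and the reverse for 3.85%. Of the 7 genes of the group at that level, Esrrb was the single gene with every knockout mouse above in this SD, and 0 had the reverse. As coefficients of variation within mice the spreads of Esrrb overlapped, at 6.87% to 18.8% in floxed and 16.9% to 32.5% in knockout mice. The value of knockout mouse 4 includes the oocyte at 26.9 CPM. Esrrb was chosen for this description after its values were seen.

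Nr5a2 (chromosome 1, 136842571 to 136960448, minus strand), which is also known from granulosa cells, had 40.5, 45.6, 55.8 and 57.7 CPM in floxed mice and 44.6, 45.3, 44.3 and 42.1 CPM in knockout mice. All 4 knockout mice lay inside the floxed range. The log2 fold change was -0.22 (SE 0.16, 95% interval -0.57 to 0.13, edgeR adjusted p = 0.321). Without mouse 1 of both genotypes it was -0.36 and passed the test (adjusted p = 0.0407), with 45.6 to 57.7 CPM in the 3 other floxed and 42.1 to 45.3 CPM in the 3 other knockout mice. The granulosa gene Nr5a1, its closest relative, was at 0.367 to 2.57 CPM in floxed and 2.19 to 3.88 CPM in knockout mice (adjusted p = 0.270). The aromatase gene Cyp19a1, another granulosa marker, was at 60.5 to 101 CPM and 61.9 to 87.7 CPM. Their part in the Nr5a2 level was not tested.

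Both Lin28 genes had counts in every oocyte, and their levels overlapped between genotypes. Lin28a (chromosome 4, 134003330 to 134018841, minus strand) had 37.8, 33.2, 53.5 and 40.8 CPM in floxed and 51.9, 44.7, 39.5 and 46.4 CPM in knockout mice, and the groups overlapped. Its log2 fold change was 0.10 (SE 0.18, 95% interval -0.30 to 0.50, edgeR adjusted p = 0.716). Lin28b (chromosome 10, 45376620 to 45486395, minus strand) had 22.3, 21.4, 27.6 and 31.3 CPM in floxed and 30.5, 33.0, 25.9 and 17.8 CPM in knockout mice. Here the lowest and the highest mouse were both knockout, and the log2 fold change was 0.02 (SE 0.24, 95% interval -0.52 to 0.56, adjusted p = 0.959). Lin28b varied more from oocyte to oocyte than Lin28a. The coefficients of variation within mice averaged 47.1% in floxed and 37.5% in knockout mice for Lin28b, and 17.7% and 24.7% for Lin28a. Single oocytes ranged from 4.01 to 62.5 CPM (floxed) and 8.12 to 46.2 CPM (knockout) for Lin28b. The widest ranges in CPM within a mouse were 14.3 to 62.5 CPM in floxed mouse 4 and 8.12 to 43.1 CPM in knockout mouse 3. As an SD of log2(CPM + 1) the widest was 1.11, in floxed mouse 2, which holds the shallowest library. Within mice, log2 CPM and log2 total had a Pearson r of 0.49 for Lin28b and 0.30 for Lin28a. The part of depth in the spread of Lin28b was not tested.

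Tcl1 (chromosome 12, 105216750 to 105222793, minus strand) had the highest level of the group per kilobase of transcript, while in CPM Sall4 was above it in every knockout mouse. Floxed mice had 531, 565, 434 and 492 CPM and knockout mice 496, 460, 432 and 444 CPM, so the groups overlapped. The log2 fold change was -0.18 (SE 0.09, 95% interval -0.39 to 0.03, edgeR adjusted p = 0.174). These values need care, since the count of Tcl1 hardly followed the depth of the library. It was 1818 in the floxed oocyte with 1746007 total counts and 2406 in the knockout oocyte with 6233840. The slope of log2 count on log2 total was 0.293 in floxed and 0.247 in knockout oocytes, where 1 means proportional and the median of tested genes was 1.09 and 1.11. Tcl1 had 1.57 counts per base of transcript in floxed oocytes, above 99.9% of tested genes, and the 182 genes at 0.8 or more had a median slope of 0.478. CPM of such a gene falls as the total rises: within mice, log2 CPM of Tcl1 and log2 total had a Pearson r of -0.98 over 49 oocytes, which share the total as the divisor. Without the 3 oocytes under 3000000 counts, the log2 fold change of Tcl1 was -0.11 (adjusted p = 0.30). Whether true differences of Tcl1 are compressed was not tested.

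**Figure D3:**
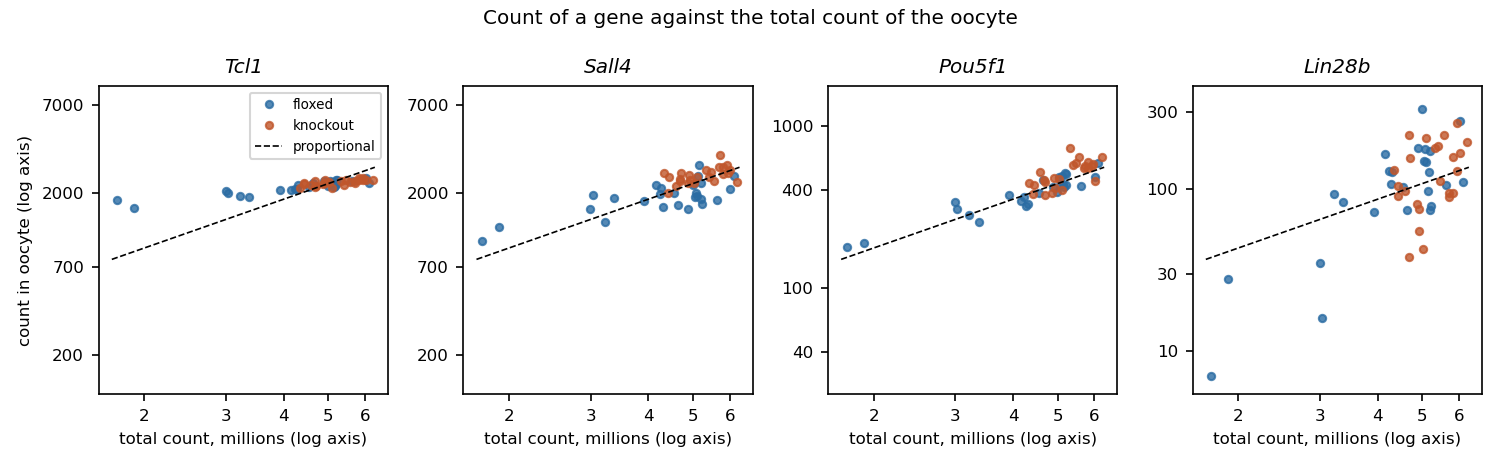
Count of 4 genes in each oocyte (vertical axis, log scale with the same relative span in all panels) against the total count of the oocyte (horizontal axis, in units of 1000000 counts, log scale); the dashed line is proportional to depth. Tcl1, with a floxed slope of 0.293, stays nearly level, Sall4 is between at 0.542, Pou5f1 at 0.849 follows the line more closely, and Lin28b at 2.09 falls off steeply in shallow libraries.

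Slopes of the other genes differed as well. All slopes were taken over the oocytes of a genotype together, so differences between mice, which also differed in depth, are part of them. Sall4, with 0.378 counts per base in floxed oocytes, had slopes of 0.542 in floxed and 0.547 in knockout oocytes. As for Tcl1, whether true differences of Sall4, between mice or between oocytes, are compressed was not tested. Pou5f1 and Esrrb were at 0.849 and 0.839 in floxed and 1.15 and 1.13 in knockout oocytes. Lin28a, Nr5a2, Klf4 and Lin28b, which had 0.0542 counts per base or fewer, had slopes of 1.59, 1.35, 1.78 and 2.09 in floxed oocytes. Their CPM thus tended to be lower in the shallower floxed libraries, and depth and mouse were not separated. In knockout oocytes these slopes were 1.12, 1.51, 0.882 and 1.72, that of Klf4 below 1. Sox2, with the fewest counts per base, had slopes of 0.353 in floxed and 1.37 in knockout oocytes. The oocytes under 3000000 counts were all floxed, and without them the log2 fold change of Klf4 was -1.18 (edgeR adjusted p = 0.0202). The part of depth in the Klf4 difference was not tested.

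Per kilobase of transcript, the order in floxed oocytes was Tcl1, Sall4, Pou5f1, Esrrb, Lin28a, Nr5a2, Lin28b, Klf4 and Sox2, and the order of the means was the same in knockout oocytes. The levels went from 362 ± 40.3 CPM per kilobase for Tcl1 through 88.2 ± 17.8 for Sall4 and 64.6 ± 0.946 for Pou5f1 to 0.882 ± 0.243 for Sox2 (SD, n = 4 floxed mice). Esrrb was at 19.3 to 21.2 in floxed and 20.5 to 35.7 in knockout mice. Tcl1 was above 99.9%, Sall4 above 93.9%, Pou5f1 above 89.2% and Sox2 above 19.8% of tested genes on this scale. Lin28a and Nr5a2, at 11.8 ± 2.48 and 10.5 ± 1.74, had floxed ranges that overlapped, and so had Lin28b and Klf4, at 4.75 ± 0.863 and 3.39 ± 0.662. Klf4 and Sox2 were apart in floxed mice, at 2.63 to 4.23 against 0.723 to 1.24, and overlapped in knockout mice, at 1.05 to 2.06 against 0.206 to 3.37. The level of Tcl1 on this scale has the depth limit given above.

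**Figure D4:**
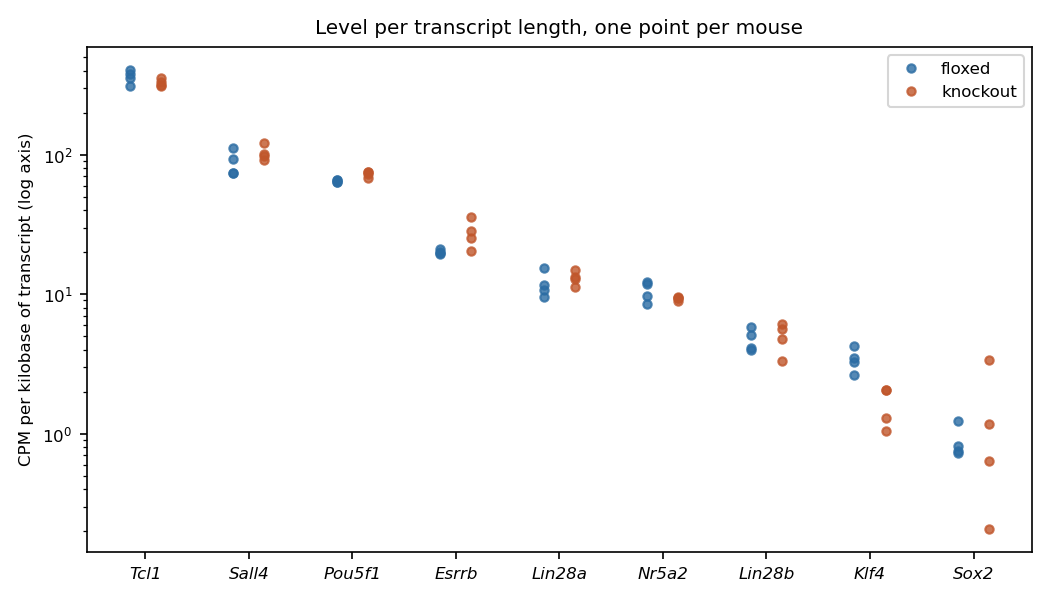
Level per kilobase of transcript (vertical axis, log scale) of the 9 genes in order of their floxed mean, with 1 point per mouse. Tcl1 leads at 310 to 404 CPM per kilobase in floxed mice, and Klf4 is the gene whose knockout points, 1.05 to 2.06, all lie below its floxed points, 2.63 to 4.23.

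How the genes varied together from oocyte to oocyte was described for 7 of the 9, without Sox2 and Klf4. Over 49 oocytes, after the mean of each mouse was subtracted, the 21 pairs of these genes, which averaged at least 10 CPM, had Pearson r from -0.56 (Lin28b and Tcl1) to 0.35 (Esrrb and Nr5a2), and that of Lin28a and Lin28b was -0.01. These are descriptions, since both genes of a pair share the library and its depth. The 3 genes most like each one are the highest of the whole table, so their r is high by choice. Sall4 was most like Zfyve21 (r = 0.81), Ranbp3 (0.79) and Lrrc42 (0.79), Esrrb like Gstm6 (0.77), Rhbdf1 (0.74) and Prr5 (0.73), and Pou5f1 like the splicing factor gene Prpf6 (0.66), Trappc3 (0.65) and Atg4b (0.65). Lin28b was most like Naa30 (0.74), Plaa (0.73) and Hiatl1 (0.71), Lin28a like Ddx31 (0.63), Rabl6 and Wdr33 (both 0.61), and Nr5a2 like Lrrc1 (0.70), Syne2 (0.68) and Bdkrb1 (0.63). Tcl1 was most like H1foo, the oocyte linker histone gene (0.99), Ldhb (0.99) and Ubb (0.98), whose own r with the log2 total was -0.99 or below, so these genes share the dependence on depth.

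Other genes of the pluripotency network changed at about the background rate. Of 22 tested genes, 5 rose and 2 fell (edgeR adjusted p under 0.05, 31.8% called against 27.6% of all tested genes), with a median log2 fold change of 0.24. With single mice left out 2 to 6 rose, and without knockout mouse 2 the 2 were Zfp42 and Sox15. Zfp42 (REX1), a marker of naive embryonic stem cells, rose from 1.42 ± 0.438 to 9.59 ± 1.38 CPM (adjusted p = 0.000717), and Sox15, a SOX2 relative, rose from 36.4 ± 14.6 to 96.2 ± 24.7 CPM (adjusted p = 0.00575). Nanos2, a germline RNA-binding gene, fell from 112.8 ± 17.5 to 58.9 ± 10.1 CPM, and the reprogramming factor Glis1 fell 45.7-fold. Named after their values were seen, Nanog was at 0.744 to 1.22 CPM in floxed and 1.32 to 2.08 CPM in knockout mice (adjusted p = 0.240), and the maternal gene Dppa3 at 214 to 288 and 234 to 280 CPM (adjusted p = 0.863). Klf2, which shares targets with KLF4 in embryonic stem cells and was also named after its values were seen, rose from 0.310 to 4.86 CPM in floxed mice to 5.36 to 30.5 CPM in knockout mice (adjusted p = 0.0228, 4 of 8 fits past the threshold with a mouse left out: lost without floxed mouse 2, 3 or 4 or knockout mouse 2).

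Among 17 tested relatives with a POU, SOX or KLF DNA-binding domain, 1 rose and 4 fell (29.4% called, median log2 fold change 0.07), and with single mice left out 0 to 2 rose and 3 to 4 fell. Klf2 and Sox15, which rose, were counted with the pluripotency network above and not here. Klf7 fell 2.10-fold, from 46.8 ± 2.70 to 22.9 ± 3.23 CPM, while Sox12 rose 2.63-fold to 5.19 ± 1.11 CPM. The Sox12 call was lost without floxed mouse 2 or 4 or knockout mouse 2 or 3. The oocyte KLF gene Klf17, named after its values were seen, was far above Klf4 in CPM and had overlapping groups, at 616 to 693 in floxed and 674 to 737 in knockout mice (adjusted p = 0.498).

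Of 17 tested genes of the LIN28 and let-7 axis, 4 rose and 1 fell (29.4% called, median log2 fold change -0.03). Without floxed mouse 1 or 2 or knockout mouse 3 or 4 only Arid3b rose, and 1 to 3 genes fell over all 8 fits that leave out a mouse. Arid3b, a known let-7 target, rose 2.09-fold from 40.4 ± 3.21 to 86.7 ± 2.25 CPM (adjusted p = 0.000349). Zcchc11 (TUT4), the uridylyltransferase that LIN28A recruits to the let-7 precursor, rose 2.31-fold from 3.85 ± 1.36 to 9.25 ± 2.39 CPM, a call lost without floxed mouse 1 or 2 or knockout mouse 3 or 4. Msi2, an RNA-binding protein gene of the Musashi family, fell 8.06-fold. Let-7 itself is not measured by these libraries.

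Of 24 tested genes of the TCL1 family and AKT signalling, 4 rose and 4 fell (33.3% called, median log2 fold change 0.12). With single mice left out 0 to 3 rose and 2 to 5 fell, and none rose without knockout mouse 2 or 3. The AKT phosphatase gene Phlpp1 rose 2.02-fold from 7.16 ± 0.905 to 14.7 ± 4.36 CPM, and the call was lost without floxed mouse 3 or 4 or knockout mouse 2, 3 or 4. Pik3ca, the catalytic subunit of the kinase upstream of AKT, fell 1.61-fold from 145.4 ± 22.0 to 92.7 ± 15.3 CPM. The Tcl1 paralogue Tcl1b2 fell 1.29-fold from 275.3 ± 27.3 to 220.0 ± 14.1 CPM (adjusted p = 0.0177, lost without knockout mouse 3). All 5 Tcl1b paralogues, named after their values were seen, had log2 fold changes below 0, from -0.36 (Tcl1b2) to -0.12 (Tcl1b4 and Tcl1b5), and slopes on depth from 0.359 (Tcl1b1) to 0.586 (Tcl1b4) in floxed oocytes. These genes are copies in 1 cluster, and no source used here says how reads shared between copies were counted, so their values and that of Tcl1 are uncertain.

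Of 17 tested nuclear receptors and coregulators related to ESRRB and NR5A2, 2 rose and 4 fell (35.3% called, median log2 fold change 0.08), and with single mice left out 2 to 3 rose and 3 to 4 fell. Nr2c1, an orphan receptor of the TR2 kind, fell 3.16-fold from 50.4 ± 2.82 to 16.5 ± 5.78 CPM, and Esr1, the oestrogen receptor alpha, fell 1.95-fold from 146.1 ± 36.2 to 77.7 ± 17.7 CPM. The coactivators that rose were Ncoa2 (1.48-fold) and Ncoa1 (1.57-fold). Of 13 tested genes of the embryo's earliest lineages, 3 rose and 2 fell (38.5% called, median log2 fold change 0.03), and with single mice left out 2 to 3 rose and 1 to 3 fell. Gata3, a trophectoderm factor, rose 2.01-fold from 69.9 ± 13.0 to 144.1 ± 9.14 CPM, and the Hippo kinase Lats2 rose 4.93-fold. Gata4, a factor of primitive endoderm and also of granulosa cells, fell 11.8-fold from 28.8 ± 5.43 to 2.48 ± 1.29 CPM, and Tead1 fell 3.42-fold (lost without floxed mouse 3).

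**Figure D5:**
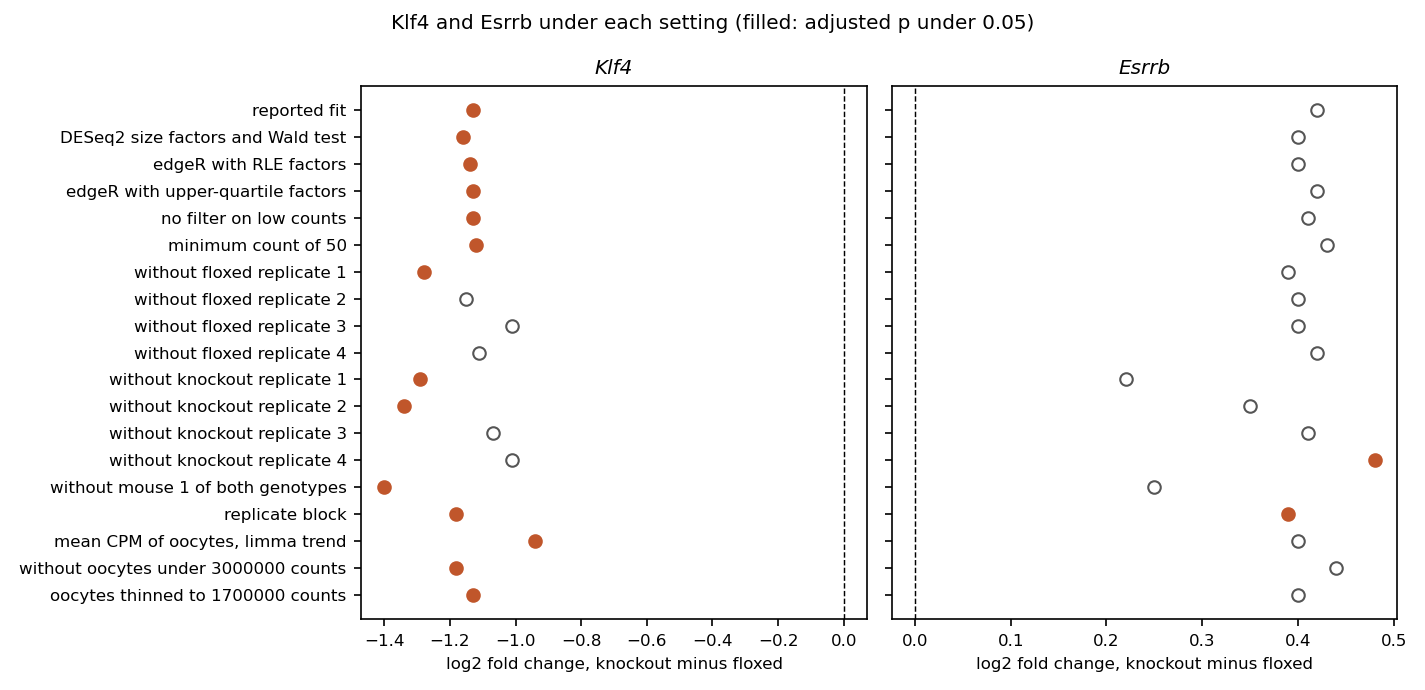
Log2 fold change of Klf4 (left) and Esrrb (right) under the reported fit and 18 other settings, 1 row each; filled points have an adjusted p under 0.05. Klf4 stays between -1.40 and -0.94 and Esrrb between 0.22 and 0.48, and the filled points change with the mouse left out.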

How the data were processed

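The values are raw read counts, whole numbers per gene and oocyte, as the authors deposited them in 1 table. Per the submitters' processing notes, STAR and mm10 were used. How reads were counted, and how duplicates and multi-mapping reads were handled, was not given in the sources used here. Per the labels' protocols, the kit was a SMARTer Ultra Low Input one for poly(A) RNA, which carries no molecular identifiers and marks no strand, so counts are reads and not molecules. Columns were matched by header name, or by title for 3 knockout oocytes. Within mice, 150 oocyte pairs were compared, and each had a chi-square per degree of freedom of 5.39 or more, so none was taken for a copy.

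Counts were summed per mouse and tested across all genes with edgeR 4.0.16 in R 4.3.3 (TMM, filterByExpr with a minimum count of 10, robust quasi-likelihood test, Benjamini-Hochberg adjusted p under 0.05). The standard error is the log2 fold change over the square root of F. The fit was tested on simulated data, and a gene that does not pass the test can still have changed. Alternatives used DESeq2 1.42.0, limma 3.58.1, other scaling and filters, thinned counts, and fits without single mice. Transcript lengths, positions and 3′ untranslated regions are from GENCODE M21 on mm10, by RefSeq accession for 16350 rows and symbol for 186. The 9 genes, the lists and the tests were chosen with earlier results of these data known. From each list the text names up to 2 called genes in each direction with the smallest p, and per gene the 3 genes most like it, leaving out unnamed gene models. Some results that this rule names are not reported here. Of the granulosa markers 1 of 21 tested fell (Cyp11a1), and of the oocyte markers 2 of 23 rose (Ddx4 and Figla) and 1 fell (Mos).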

Additional observations from a re-analysis of the deposited data

How the results depend on the processing

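Over 18 other settings, Pou5f1, Sall4 and Tcl1 kept their direction and stayed short of the threshold, with log2 fold changes of 0.06 to 0.16, 0.04 to 0.31 and -0.27 to -0.11. Klf4 was lower in all 18 (-1.40 to -0.94, adjusted p from 0.00146 to 0.0761) and passed in 13. The 5 that ended its call each left out a mouse. With single mice left out, 0 to 1 of the 9 genes were called (edgeR), and 2728 to 5360 of all genes. Without floxed mouse 4 the count of all genes was 2728, and without mouse 1 of both genotypes it was 6731, of which 3182 were higher and 3549 lower, with 2 of the 9 genes called (Klf4 and Nr5a2, both lower). The causes were not tested.

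Mouse numbers are shared by the genotypes, but the labels do not say that they mark pairs. Deviations of same-numbered mice correlated at 0.503, 0.0307, 0.399 and 0.29, and floxed mice 2 and 4 correlated best with another number. With the mouse number as a replicate block, 5823 genes and 2 of the 9 were called, Klf4 (-1.18, adjusted p = 0.0283) and Esrrb (0.39, adjusted p = 0.0456).

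Directions near 0 changed sign. Lin28b was -0.09 without floxed mouse 1, -0.06 without floxed mouse 2, -0.09, -0.15 and 0.00 without knockout mouse 1, 2 or 3, -0.15 without mouse 1 of both, 0.00 with the replicate block, and -0.03 without oocytes under 3000000 counts. Lin28a was -0.01 without knockout mouse 1 and -0.05 without mouse 1 of both. Sox2 was -0.47 without knockout mouse 1, -0.27 without mouse 1 of both, and -0.02 with the replicate block. With single mice left out, the ranges were -0.01 to 0.25 for Lin28a, -0.15 to 0.14 for Lin28b and -0.47 to 0.81 for Sox2. None of these passed the threshold (adjusted p from 0.32 to 1). The low counts of Sox2 and Klf4, the single oocyte of knockout mouse 1 and the flat counts of Tcl1 limit what can be told.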
